A study of Mus musculus with 12 samples.

Results

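Genes that make microRNAs or carry out their silencing were followed in mouse thymocytes with and without the miR-181a/b-1 microRNA cluster. They were taken by gene symbol from a fixed list of 10 symbols, namely Drosha, Dgcr8, Xpo5, Dicer1, Ago1, Ago2, Ago3, Ago4, Tnrc6a and Tnrc6b, and all 10 were found among the 55335 rows of the count matrices. The rule used names alone and no measured value, but the 10 symbols were chosen with earlier results of these data known. RNA-seq and ribosome footprints (the mRNA fragments that ribosomes protect from nuclease) were counted per gene in 3 wild-type (WT) and 3 miR-181a/b-1 knockout (KO) libraries each, 12 libraries in all in 4 groups of 3. Thymocytes came from mice 6 weeks old kept free of specific pathogens. They were passed through a strainer of 70 µm and held in 0.1 mg/ml cycloheximide, which arrests elongating ribosomes, before libraries were made with a kit for mammalian ribosome profiling. Both genotypes were treated alike. Strain, sex and the form of the deletion (whole body or one lineage) are not stated in these sources. The question was whether the machinery responds when a microRNA abundant in thymocytes is lost.

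A microRNA is cut from a longer transcript as a hairpin by Drosha and its partner Dgcr8 in the nucleus, carried to the cytoplasm by exportin-5 (Xpo5), and cut again by Dicer. One strand is loaded into an argonaute protein, which pairs with target mRNAs mainly through the microRNA's seed. The argonaute then binds a GW182 scaffold of the Tnrc6 family, which brings in the enzymes that shorten poly(A) tails, remove caps and repress translation. In thymocytes, the miR-181 family is known for setting the sensitivity of T cell receptor signalling during selection.

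The 2 deleted hairpins are shown because they are what Drosha and Dicer act on. Sequences are from RefSeq on the GRCm38.p6 build, 5′ to 3′, and capitals mark the mature strands that remain after both cuts. Mir181a-1 (87 bases, chr1:137966455-137966541, plus strand) and Mir181b-1 (80 bases, chr1:137966639-137966718, plus strand) read:
Mir181a-1: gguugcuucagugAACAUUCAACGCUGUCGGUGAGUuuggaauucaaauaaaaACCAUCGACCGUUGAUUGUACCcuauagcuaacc
Mir181b-1: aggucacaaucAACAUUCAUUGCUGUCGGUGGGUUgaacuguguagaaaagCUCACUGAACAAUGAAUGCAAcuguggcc

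The mouse genome holds 6 hairpin genes of the family, which give 4 distinct 5p names, and 4 of the 6 hairpins remain when the pair is deleted. The mature 5p sequences follow to show what an argonaute loses and what it can still load, with the seed (bases 2 to 8) in capitals:
miR-181a-5p: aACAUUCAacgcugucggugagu
miR-181b-5p: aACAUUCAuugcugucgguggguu
miR-181c-5p: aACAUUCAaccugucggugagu
miR-181d-5p: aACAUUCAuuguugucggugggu
All 4 share 1 seed. The deleted pair encodes miR-181a-5p at chr1:137966468-137966490 and miR-181b-5p at chr1:137966650-137966673, and the same 2 mature sequences are also encoded by Mir181a-2 and Mir181b-2 on chromosome 2.

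The labels were checked against the targeted gene. Footprint libraries gave Mir181a-1 133 to 166 CPM (the share of a library's reads in genes, scaled to a common total and by TMM) in WT and 0.464 to 1.04 CPM in KO, an edgeR log2 difference of -7.47 (FDR 2.24e-05). In RNA-seq the row held 57 reads over the 3 WT and 67 over the 3 KO libraries and did not separate them (log2 0.33, edgeR FDR 0.756), so the genotype of the RNA-seq libraries is taken from the labels. For Mir181b-1 none of the 12 libraries held a read. A count of 0 over a group of 3 libraries allows 0.148 CPM (WT) and 0.153 CPM (KO) in RNA-seq, and 0.0654 CPM (WT) and 0.0987 CPM (KO) in footprints, from 3 counts and for counting error only. Those limits hold for reads assigned to the row. Reads with several alignments were counted apart from genes and are not covered. Reads in genes numbered 4479182 to 8180286 per RNA-seq library and 4069968 to 17859770 per footprint library. The 9 thymocyte markers checked all had reads in both assays, with overlapping sums (10597 to 12863 CPM in RNA-seq, 18552 to 20210 CPM in footprints). Singly, 0 of the 9 were called in RNA-seq. In footprints 1 was called higher and 3 lower in KO, beside 9.25% and 8.34% of all genes. Of 6 lists of other cell types, dendritic cell markers (4 genes) summed to 15.1 to 19.8 CPM in WT and 8.98 to 13.9 in KO in RNA-seq, and to 39.5 to 49.4 and 26.8 to 36.7 in footprints. Thymic epithelium markers (5 genes) were likewise lower in KO without overlap in both assays (18.9 to 22.2 against 14.2 to 17.3 CPM, and 75.5 to 82.3 against 59.8 to 70.5). In RNA-seq alone, erythroid markers (5 genes) were lower in KO (46.6 to 58.4 against 76.0 to 90.8 CPM), and markers of macrophages and granulocytes (71.9 to 87.6 against 56.9 to 66.1) and of stroma and endothelium (226 to 235 against 198 to 203) were higher. B cell sums overlapped in both assays. Singly, 1 dendritic, 1 epithelial and 1 erythroid marker were called lower in KO in RNA-seq (3.43% of all genes). There, 2 of macrophages and granulocytes and 1 of stroma and endothelium were called higher (3.48%). In footprints, 2 dendritic, 1 epithelial and 1 erythroid marker were called lower. Called higher there was 1 each of B cells, macrophages and granulocytes, and stroma and endothelium. Sums can rest on few markers. No marker had 0 reads in an assay. The part of these cells in the results that follow was not tested, and in these bulk samples fewer cells of a type and less RNA per cell cannot be told apart.

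Every error given here has to be read with a pattern in the deposited counts in mind. Libraries of WT and KO with the same number deviated from their group means in mirror image: over 7155 well-counted genes the correlation was -0.99 to -0.98 for same-numbered and 0.15 to 0.73 for differently numbered RNA-seq libraries, and over 6560 genes it was -0.99 and 0.39 to 0.63 in footprints. Among the 9 genes of the machinery that could be tested, the deviations were of opposite sign in 26 of 27 same-numbered pairs in RNA-seq and in 27 of 27 in footprints. For Tnrc6b the 2 deviations of a pair cancelled to within 0.007 on the log2 scale in RNA-seq. Ranges, SDs and standard errors across these libraries therefore do not measure the spread between mice alone, and each call is given without and with the library number as a block. The block fits a shift that both libraries of a number share. It does not take up deviations in opposite directions, so neither fit gives the spread between mice alone.

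In KO, the RNA and footprints of the 9 tested genes lay close to the WT level, and calls depended on the block. Tnrc6b, a scaffold, was higher in KO by 1.18-fold in RNA-seq and by 1.21-fold in footprints, and was the 1 of 9 tested genes called in each assay without the block. With the block, 0 of 9 were called in either assay. Drosha, Dgcr8, Xpo5, Dicer1, Ago1, Ago2, Ago3 and Tnrc6a lay between -0.21 and 0.14 on the log2 scale in RNA-seq and between -0.13 and 0.12 in footprints and were not called. Of these, Ago1 came nearest to a call in RNA-seq (log2 -0.21, edgeR FDR 0.0536 without the block). Ago4 had too few reads to test.

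Counts of calls were read against those of all genes. In RNA-seq, 1 of 9 was called at an edgeR FDR under 0.05 where 6.91% of 13652 genes were (3.48% of them higher in KO), and in footprints 1 of 9 where 17.6% of 13509 genes were (9.25% higher). With the block the share of all genes fell to 0.806% and 3.02%. At an unadjusted edgeR p under 0.05 with the block, 0 of 9 passed in RNA-seq (9.71% of all genes) and 1 of 9 in footprints (16.2%), the last being Tnrc6b. The called share is thus no larger than that of genes at large in footprints, and 1 gene of 9 is too few to set it apart in RNA-seq. Called higher in both assays were 1 of 9, beside 2.15% of 11854 genes tested in both. The genotypes did not overlap for 2 of 9 in RNA-seq (30.9% of all genes) and for 2 of 9 in footprints (38.1%). The count was 1 of 9 for a gene higher in KO without overlap in both assays (7.18%). DESeq2, run on the same counts, called 0 of 9 in RNA-seq and 1 of 9 in footprints.

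The sizes of the differences were small. The median of the 9 log2 differences was 0.05 in RNA-seq (6 positive, 3 negative) and 0.02 in footprints (5 positive, 4 negative), beside medians of -0.00053 and -0.0090 over all genes. Their median absolute log2 difference was 0.070 in RNA-seq and 0.084 in footprints, against 0.17 in each assay over all genes, which include many with few reads. With the block, the 95% interval lay inside a 1.5-fold change either way for 8 of 9 in RNA-seq and for 9 of 9 in footprints, and inside a 2-fold change for 9 of 9 in both. Changes beyond 2-fold in either direction were thus outside the intervals of all 9 tested genes in both assays.

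**Figure D1:**
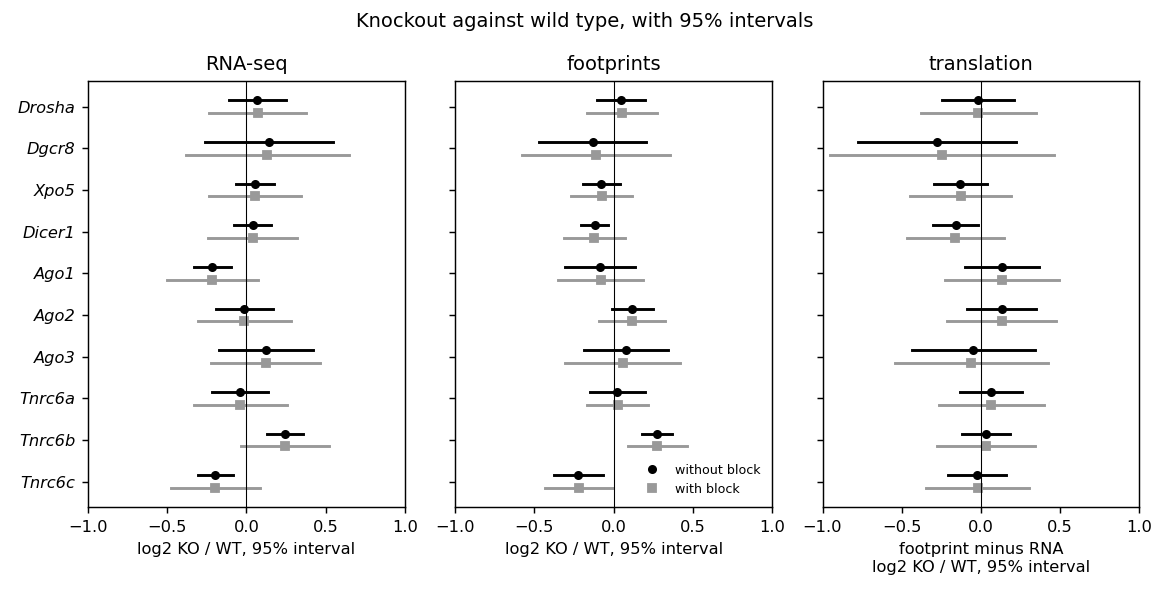
Log2 difference between knockout and wild type (x axis) with its 95% interval for the 9 tested genes and Tnrc6c (rows), in RNA-seq, in footprints and as the footprint difference minus the RNA difference (translation). Black circles are fits without and grey squares fits with the library number as a block; in RNA-seq and footprints Tnrc6b lies to the right of 0 and Tnrc6c to the left, and the grey intervals are wider.

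The microprocessor opens the pathway. Drosha (ENSMUSG00000022191.16), the nuclear RNase III, had RNA-seq values of 74.1, 74.6 and 82.4 CPM in WT libraries 1 to 3 and 84.1, 84.3 and 74.7 CPM in KO. Its footprints were 57.5, 62.4 and 55.9 CPM in WT and 62.3, 57.0 and 63.8 CPM in KO. The genotypes overlapped in both assays, and the log2 differences were 0.07 (SE 0.08, edgeR FDR 0.632) and 0.05 (SE 0.06, edgeR FDR 0.674). Dgcr8 (ENSMUSG00000022718.12), which binds the hairpin stem for Drosha, had the fewest reads of the tested genes, 247 and 254 in RNA-seq and 371 and 221 in footprints over the WT and KO groups. Its RNA-seq level was 11.9 ± 1.94 CPM (SD, n = 3) in WT and 12.9 ± 2.35 in KO, and its footprint level 7.96 ± 1.03 and 7.52 ± 1.15, with overlap in both. With the block its RNA-seq interval ran from 0.767-fold to 1.56-fold, and it was the 1 gene whose interval passed 1.5-fold there. RefSeq places Trmt2a and the microRNA gene Mir1306 over Dgcr8, and how the authors' counting treated shared reads was not given in the sources used here.

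Xpo5 (ENSMUSG00000067150.6) exports the hairpin precursors. RNA-seq gave 101, 100.1 and 104 CPM in WT and 106, 108 and 103 CPM in KO. Footprints gave 207, 223 and 209 CPM in WT and 209, 192 and 205 CPM in KO. The groups overlapped in both assays, and the differences of 0.05 and -0.08 (SE 0.05 in each, edgeR FDR 0.567 and 0.337) were not called.

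Dicer1 (ENSMUSG00000041415.10), which cuts the exported hairpin to the mature duplex, overlapped between genotypes in RNA-seq while its footprints were lower in every KO library. RNA-seq values were 262, 273 and 268 CPM in WT and 281, 270 and 274 CPM in KO, which overlapped (log2 0.04, SE 0.05, edgeR FDR 0.679). Footprint values were 94.6, 97.6 and 97.5 CPM in WT and 90.7, 87.8 and 87.6 CPM in KO, which did not overlap. The footprint difference of -0.12 (SE 0.03, fold 0.920) missed the threshold narrowly without the block (edgeR FDR 0.0595) and widely with it (FDR 0.542). Its footprint difference minus its RNA difference was -0.16 (SE 0.07, unadjusted p = 0.0315, edgeR FDR 0.298; FDR 0.997 with the block).

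The 4 argonautes hold the mature microRNA, and Ago2 is the one that can also slice a matched target. Ago1, Ago3 and Ago4 lie side by side on chromosome 4 and Ago2 on chromosome 15. Ago2 (ENSMUSG00000036698.11) gave 551, 484 and 516 CPM in WT and 481, 550.0 and 508 CPM in KO in RNA-seq. Both groups covered nearly the same range, and the log2 difference was -0.01 (SE 0.08, edgeR FDR 0.943). With the block, the 95% interval ran from 0.809-fold to 1.22-fold. Footprints of Ago2 were 74.8, 68.3 and 70.4 CPM in WT and 73.3, 80.4 and 77.8 CPM in KO. KO libraries 2 and 3 lay above every WT library and KO library 1 within their range, and the difference of 0.12 was not called (SE 0.05, edgeR FDR 0.189; FDR 0.596 with the block).

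Ago1 (ENSMUSG00000041530.16) had 145, 148 and 150.4 CPM in WT RNA-seq and 130.3, 128 and 125 CPM in KO. Every KO library lay below every WT library, by a log2 difference of -0.21 (SE 0.05), which missed the threshold (edgeR FDR 0.0536; FDR 0.676 with the block). Its footprints did not separate the genotypes, with 48.8, 41.5 and 42.7 CPM in WT and 37.7, 44.7 and 43.7 CPM in KO (log2 -0.08, edgeR FDR 0.583). Ago3 (ENSMUSG00000028842.15) ranged over 109 to 139 CPM in WT and 126 to 157 CPM in KO in RNA-seq, and over 13.8 to 16.9 and 13.0 to 16.5 CPM in footprints. Both overlapped, and the log2 differences were 0.12 (SE 0.12, edgeR FDR 0.604) and 0.08 (SE 0.11, edgeR FDR 0.681).

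Ago4 (ENSMUSG00000042500.11) was nearly unread. RNA-seq held 2, 6 and 6 reads in the WT libraries and 5, 1 and 1 in the KO libraries, and footprints 7, 5 and 5 in WT and 4, 8 and 0 in KO. The library with 0 reads allows up to 0.737 CPM (3 counts, counting error only), which lies above every other footprint value of the gene. No difference was detectable at this depth, and Ago4 entered no test. Summed over the 4 argonautes, RNA-seq gave 793 ± 33.7 CPM (SD, n = 3) in WT and 780 ± 32.2 in KO, and footprints 131 ± 7.20 and 135 ± 7.35. Both sums overlapped between genotypes.

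**Figure D2:**
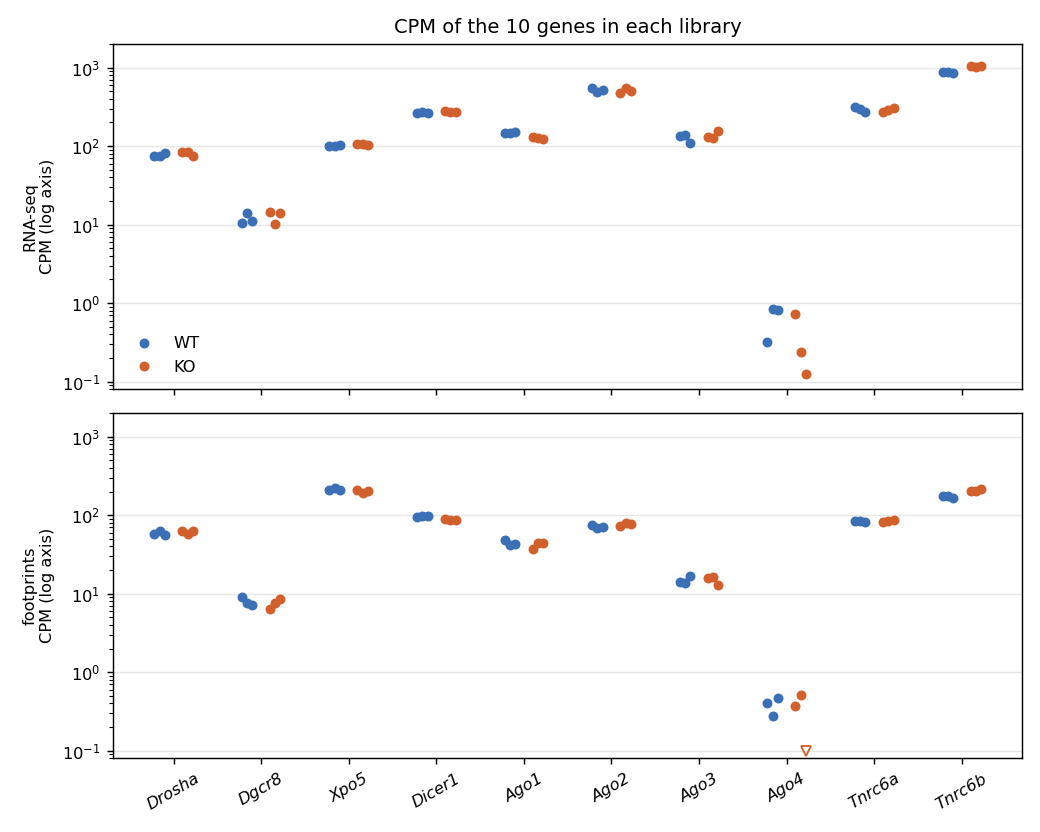
CPM of the 10 genes (x axis) in each library on a log axis, RNA-seq above and footprints below, with wild-type libraries 1 to 3 in blue and knockout libraries 1 to 3 in orange. The open triangle near the foot of the lower panel stands for the knockout library with 0 reads of Ago4; the 2 colours sit at nearly the same height on this scale for the 9 tested genes, while those of Ago4, at 8 reads or fewer per library, are spread, and CPM is a share of reads that is not divided by gene length.

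The GW182 scaffolds join the argonaute to the enzymes that destroy or repress the target. Tnrc6b (ENSMUSG00000047888.10, chromosome 15) gave 872, 889 and 857 CPM in WT RNA-seq and 1037, 1016 and 1047 CPM in KO. All 3 KO libraries lay above all 3 WT libraries, by a gap wider than the range within either genotype. The log2 difference was 0.24 (SE 0.05, edgeR FDR 0.0347 without and 0.589 with the block). Footprints were 176, 175 and 166 CPM in WT and 205, 205 and 215 CPM in KO. Again the genotypes were apart, by a log2 difference of 0.27 (SE 0.04, edgeR FDR 0.00679 without the block). With the block the estimate was 0.27, with a 95% interval from 1.06-fold to 1.38-fold, an unadjusted p of 0.00812 and an edgeR FDR of 0.131.

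The call of Tnrc6b in RNA-seq rested on all 6 libraries: leaving out any 1 of them gave log2 differences of 0.23 to 0.26 and edgeR FDR values of 0.0891 to 0.131. In footprints the call held each time, with 0.25 to 0.29 and FDR 0.023 to 0.0364. The authors' deposited table listed Tnrc6b as significantly up in both assays, at 0.24 (adjusted p 0.0181) and 0.26 (adjusted p 0.000617). It listed the other 8 tested genes as not significant in either assay, and did not list Ago4. That table called 548 of 13301 genes in RNA-seq and 1209 of 11369 in footprints.

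Tnrc6a (ENSMUSG00000052707.8) showed no such separation. It gave 316, 298 and 276 CPM in WT and 272, 288 and 306 CPM in KO in RNA-seq, and 85.4, 83.7 and 80.8 against 82.9, 84.5 and 87.4 CPM in footprints. The log2 differences were -0.04 (SE 0.07, edgeR FDR 0.802) and 0.02 (SE 0.07, edgeR FDR 0.869). Tnrc6c, the other member of the family, stood in the wider pathway list and not among the 10. It was lower in every KO library than in any WT library in both assays: 367, 360 and 361 against 313, 321 and 316 CPM in RNA-seq, and 112, 107 and 98.7 against 86.0, 90.6 and 97.5 CPM in footprints. Its log2 differences of -0.19 and -0.22 (SE 0.05 and 0.06) missed the threshold (edgeR FDR 0.0576 and 0.0593; with the block, FDR 0.709 and 0.295).

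Tnrc6b and Tnrc6c were therefore set side by side within each library, a ratio that needs no scaling between libraries and that was chosen after their values were seen, so it carries no test. RNA-seq held 2.41 ± 0.057 reads of Tnrc6b per read of Tnrc6c in WT (SD, n = 3) and 3.26 ± 0.083 in KO. Footprints held 1.63 ± 0.058 in WT and 2.29 ± 0.088 in KO. Per read of Tnrc6a, Tnrc6b had 2.07 ± 0.018 footprint reads in WT and 2.46 ± 0.021 in KO, and 2.95 ± 0.173 and 3.59 ± 0.203 reads in RNA-seq. None of these 4 ratios overlapped between genotypes. All 4 hold Tnrc6b, which itself did not overlap in either assay, so they are not separate results. Reads of Ago2 per read of Ago1 overlapped in RNA-seq (3.50 ± 0.272 in WT, 4.02 ± 0.314 in KO). In footprints that ratio did not overlap (1.61 ± 0.065 and 1.84 ± 0.091). The summed level of the 3 scaffolds was 1532 ± 33.4 CPM in WT and 1639 ± 26.7 in KO in RNA-seq, without overlap. In footprints it was 361 ± 14.1 and 385 ± 13.7 CPM, and the groups nearly touched (highest WT library 373.1, lowest KO library 373.8 CPM). Among single genes, 30.9% in RNA-seq and 38.1% in footprints did not overlap.

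**Figure D3:**
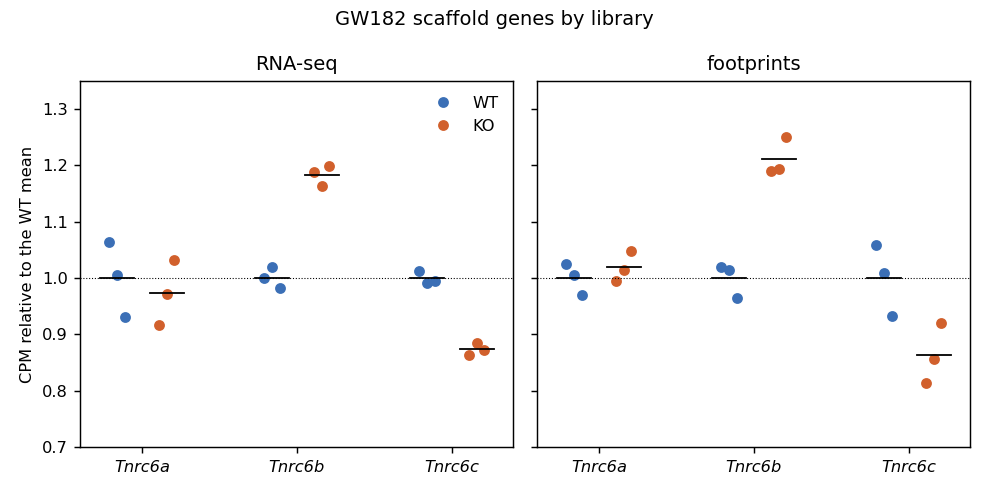
CPM of the 3 GW182 scaffold genes (x axis) in each library divided by the mean of the wild-type libraries (y axis, which does not start at 0), RNA-seq left and footprints right. Points are libraries 1 to 3 of wild type (blue) and knockout (orange), and black bars are group means; Tnrc6b lies above the wild-type points and Tnrc6c below them in both assays, while Tnrc6a overlaps.

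Translation was asked for by testing whether the KO effect on footprints differed from that on RNA. None of the 9 genes was called (0 of 9, beside 0.211% of 11854 genes, or 0.0169% with the block). At an unadjusted edgeR p under 0.05, 1 of 9 passed, which was Dicer1, beside 14% of all genes, and 0 of 9 with the block (3.29%). DESeq2 also called 0 of 9. For Tnrc6b the difference between assays was 0.03 (SE 0.07, edgeR FDR 0.894), beside log2 differences of 0.24 in RNA-seq and 0.27 in footprints. The 9 differences ran from -0.28 for Dgcr8 to 0.13 for Ago1 with a median of -0.02. With the block, 8 of 9 intervals lay inside a 1.5-fold change, all but that of Dgcr8 (0.517-fold to 1.38-fold).

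The genes differed in how many footprints they carried for their RNA, and genes at large differed in this too. In WT, the footprint CPM of Ago3 was 0.118 times its RNA-seq CPM, a log2 ratio of -3.09 ± 0.25 (an SD that combines the spread of 3 libraries in each assay), and 3.71% of 11798 genes read in both assays had a lower ratio. Ago2 stood at -2.86 ± 0.12 (4.59% lower), Tnrc6b at -2.34 ± 0.05 (7.27%), Tnrc6a at -1.83 ± 0.11 (11.95%) and Ago1 at -1.74 ± 0.13 (12.95%). These 3 argonautes and 2 scaffolds thus lay among the lowest 13% of genes, with Tnrc6c beside them at -1.78 ± 0.09. Dicer1 followed at -1.47 ± 0.04 (17.1% lower).

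The nuclear and export steps read differently. Dgcr8 at -0.57 ± 0.29 (38.5% of genes lower) and Drosha at -0.39 ± 0.12 (43.9%) were near the median of all genes, -0.19, and their SDs overlap each other. Xpo5 was the 1 of 9 above that median, at 1.06 ± 0.07, or 2.09 footprint CPM per RNA-seq CPM (83.5% of genes lower). The median of the 9 was -1.74, a ratio of 0.299, against 0.875 over all genes and 0.922 over the 50 other tested genes of the pathway list. Below the median of all genes were 8 of the 9, and 25 of those 50. In KO the order of the 9 was the same except between Ago1 and Dicer1, at -1.61 ± 0.14 and -1.63 ± 0.04, which do not differ beyond their spread. The labels do not tie an RNA-seq library to a footprint library of the same mouse, so no ratio per mouse was formed. The ratio takes all reads counted for a gene in each assay and is not divided by coding length, and its relation to untranslated length was not tested.

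**Figure D4:**
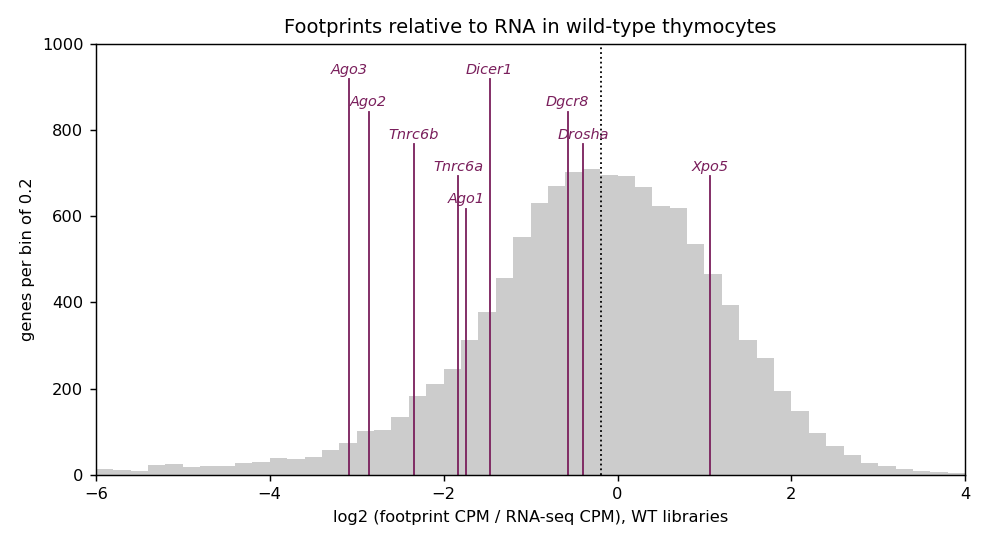
Histogram of the log2 ratio of footprint CPM to RNA-seq CPM (x axis) over the genes read in both assays in wild-type libraries (y axis: genes per bin of 0.2), with the 9 tested genes as vertical lines whose height carries no value. The dotted line is the median of all genes, -0.19; the argonautes, the Tnrc6 scaffolds and Dicer1 lie to its left, Drosha and Dgcr8 near it and Xpo5 to its right.

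The wider pathway was described with a list of 63 genes in 9 roles, of which 10 are the genes above and 53 are others. That list was also chosen with earlier results of these data known. Tested were 59, and Ago4, Lin28a, Lin28b and Wtip had too few reads. In RNA-seq 2 of 59 were called higher in KO (Tnrc6b and Ddx5, beside 3.48% of all genes) and 1 lower (Hspa8, beside 3.43%). In footprints 6 were called higher and 5 lower, beside 9.25% and 8.34% of all genes. With the block, Hspa8 alone was called, in both assays, and for translation edgeR called 0 of 59 without the block and with the block within each assay. By role, the 9 microprocessor genes and cofactors had medians of 0.01 and -0.05 in RNA-seq and footprints, the 20 tested silencing effectors 0.03 and 0.01, and the 8 genes of argonaute regulation and microRNA turnover 0.05 and 0.02.

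Ddx5, a helicase that assists Drosha, rose in RNA-seq from 1044 ± 21.9 to 1224 ± 21.1 CPM (SD, n = 3; log2 0.23, edgeR FDR 0.0426, 0.620 with the block), and its footprints overlapped (log2 -0.01, FDR 0.919). Ptges3, the p23 cochaperone of Hsp90 that takes part in loading argonautes, rose in footprints from 10.7 ± 0.378 to 15.6 ± 0.547 CPM (log2 0.54, edgeR FDR 0.00356). Zc3h12a, an RNase also known to cut microRNA precursors, rose in footprints from 16.7 ± 0.594 to 21.4 ± 0.792 CPM (log2 0.37, edgeR FDR 0.00944) with overlapping RNA (log2 -0.11, FDR 0.562). Eif4e2, a cap-binding repressor of translation, rose in footprints by 0.23 (edgeR FDR 0.0156). Among effectors that were lower, Lsm14b, a P-body protein, fell by 0.30 (edgeR FDR 0.00572) and Pan3, a subunit of a poly(A) nuclease that GW182 proteins recruit, fell by 0.22 (edgeR FDR 0.0156) in footprints. RNA-seq of Ptges3 (log2 0.27, edgeR FDR 0.0819), Eif4e2 (0.18, FDR 0.0879) and Lsm14b (-0.34, FDR 0.0720) moved the same way without being called. These 3 did not overlap between genotypes there, beside 30.9% of all genes. RNA-seq of Pan3 overlapped (-0.03, FDR 0.822). Without any 1 of the 6 libraries the call of Ddx5 was lost (edgeR FDR 0.121 to 0.143), and those of Eif4e2 and Pan3 were lost in 4 of 6 cases (FDR up to 0.0764 and 0.0643). All of these lost their call with the block, at edgeR FDR values from 0.101 for Ptges3 to 0.620 for Ddx5.

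Hspa8, the constitutive Hsp70 that also helps load argonautes, fell from 100.6 to 152 CPM over the WT libraries to 16.1 to 25.3 CPM over the KO libraries in RNA-seq (log2 -2.72, edgeR FDR 0.00224) and from 173 ± 29.2 to 11.4 ± 2.41 CPM in footprints (log2 -3.86, edgeR FDR 0.000235). Its call held with the block (FDR 4.29e-05 and 2.53e-06). Its footprint difference minus its RNA difference was -1.14 (SE 0.30, edgeR FDR 0.131; 0.997 with the block within each assay). That difference passed the threshold with DESeq2 (-1.19, FDR 0.00772), and with edgeR when RNA-seq and footprint libraries of equal genotype and number were blocked together (-1.23, FDR 0.0247). Hspa8 has near-identical copies in the genome. Reads with several alignments were counted apart from genes, so reads shared with a copy may be missing from this row. The level of this row is therefore uncertain in both genotypes. Whether counting has a part in the difference between genotypes was not tested.

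**Figure D5:**
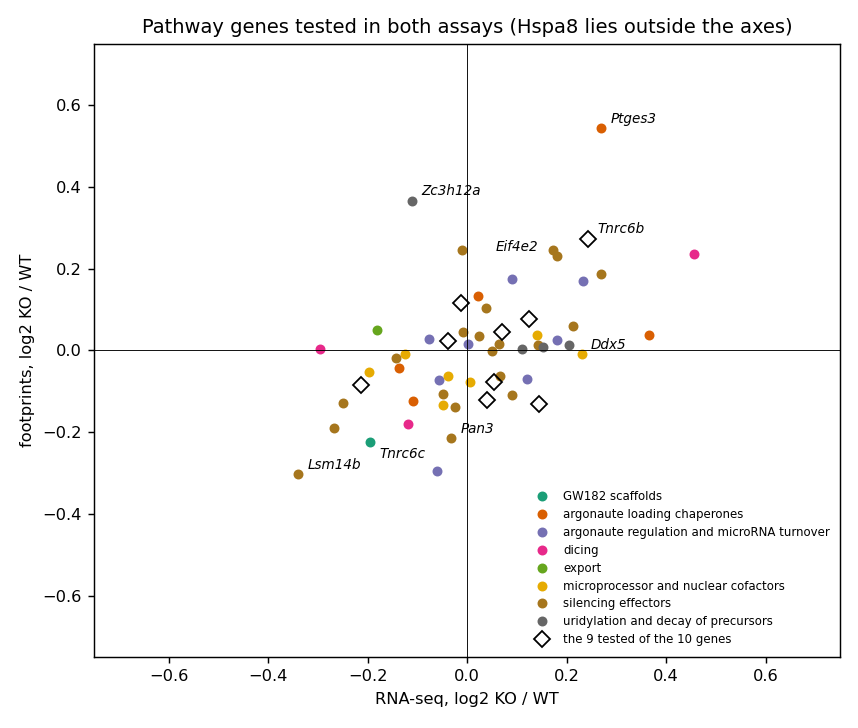
Log2 difference between knockout and wild type in RNA-seq (x axis) and footprints (y axis) for the pathway genes tested in both assays, coloured by role, with the 9 tested genes of the machinery as open black diamonds. Most points lie within 0.3 of 0 on both axes; Tnrc6b is the diamond farthest to the upper right, and Hspa8 (-2.72 and -3.86) lies outside the axes.

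For Ago2 and Dicer1, the genes whose levels followed theirs most closely over the 12 libraries were listed, after centring each assay on its own mean and over 11797 genes. For Ago2 they included Tango2 (Pearson r 0.980) and Cnn2 (0.956). For Dicer1 they were Galc (0.968), Rad51ap1 (0.950) and Nuf2 (0.948). These are descriptions: the libraries share the mirrored deviations given above, which any 2 genes can follow together.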

How the data were processed

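The authors deposited reads per gene as whole-number counts in 1 matrix for RNA-seq and 1 for footprints. The counts are called adjusted in the deposit, and how they were adjusted was not given in the sources used here. Per the submitters' processing notes, the tools included STAR 2.7.10a, Bowtie2 2.5.1, HTSeq 2.0.3, FastQC and DESeq2 1.40.2, in roles not given there. A genome build was not given in the sources used here. Of counted reads, 27.0% to 28.5% fell in genes in RNA-seq and 72.3% to 73.1% in footprints, and rows of unassigned reads (no feature, several alignments) were left out of library sizes. The other 12 columns of per-library values were not used.

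Counts were tested with edgeR 4.0.16 (R 4.3.3; TMM scaling, filterByExpr with a minimum count of 10, quasi-likelihood test, Benjamini-Hochberg FDR under 0.05 over all genes), within each assay, and over all 12 libraries as a genotype by assay interaction for translation. Standard errors and 95% intervals were derived from the test's p. Alternatives were DESeq2 1.42.0, no filter, a joint fit, an FDR of 0.1, the library number as a block, and each library left out. Scripts were tested on simulated data. The labels number 3 replicates per genotype in each assay, which were taken as mice. The ratio of Tnrc6b to Tnrc6c and leaving out libraries for the ratio of footprints to RNA were added after seeing the data. The other ratios between genes and the summed levels of argonautes and scaffolds were not planned either.

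The genes named are the 10, Tnrc6c, the Mir181 rows, up to 6 other pathway genes called in each assay with the smallest FDR, and the 3 genes most like Ago2 and Dicer1, of which 1 is not reported here. The members and lists were chosen with earlier results of these data known. Levels per length were planned and not run, since gene lengths were not used here, and CPM is not compared between genes. Gene order and overlaps come from RefSeq.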

Additional observations from a re-analysis of the deposited data

Results flagged for a closer look

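The effect of genotype on Mir181a-1 differed between the assays, by a test of the difference itself. Footprints fell from 148 ± 16.8 to 0.828 ± 0.317 CPM (SD, n = 3) while RNA-seq gave 2.81 ± 1.62 and 3.27 ± 1.59 CPM, and the difference between the 2 log2 changes was -7.80 (SE 0.63, edgeR FDR 0.000326; 0.000221 with the block). Of the machinery genes, 0 of the 9 tested passed that test.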

How the results depend on the processing

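The direction of Tnrc6b held in every alternative run, in both assays. Its RNA-seq call was lost with DESeq2 (FDR 0.0846), without the filter on low counts (edgeR FDR 0.0855), with the replicate block (0.589) and without any 1 library, and its footprint call with the block alone (0.131). Machinery genes called in RNA-seq thus went from 1 to 0 with DESeq2, without the filter and with the block, and to 2 (adding Ago1) at an FDR of 0.1. In footprints they went from 1 to 0 with the block and to 2 (adding Dicer1) at an FDR of 0.1, and for translation they stayed at 0. Leaving out 1 library gave 0 to 0 in RNA-seq, 1 to 1 in footprints and 0 to 0 for translation.

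Over all genes, 943 calls in RNA-seq became 532 with DESeq2, 110 with the replicate block, 1565 in a joint fit of 12 libraries and 1742 at an FDR of 0.1. In footprints 2376 became 1235 with DESeq2 and 408 with the block. For translation 25 became 52 with DESeq2, 2 with the block within each assay, 17 with a block over RNA-seq and footprint libraries of equal genotype and number (a link the labels do not give) and 128 at an FDR of 0.1. Without 1 library the counts ran from 215 to 323, from 1035 to 1554 and from 4 to 25, and fewer libraries lower such counts by construction. The cause of the other shifts was not tested. The replicate block is given beside the calls because the deviations of same-numbered libraries were tied, in opposite directions (correlation -0.99 to -0.98). Such a block fits a shift that both libraries share, so it does not take up mirrored deviations. The labels do not say what a number stands for.

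Differences near 0 changed sign without 1 library: Ago1 footprints (-0.15 to 0.0053), Ago2 RNA-seq (-0.0677 to 0.0345), Tnrc6a RNA-seq (-0.0880 to 0.0059) and footprints (-0.0016 to 0.0461), Ddx5 footprints (-0.0341 to 0.0285), and for translation Ago3 (-0.11 to 0.0670), Drosha (-0.0751 to 0.0298), Lsm14b (-0.0280 to 0.0850) and Tnrc6c (-0.0747 to 0.0232). Tnrc6c passed the threshold in the joint fit (edgeR FDR 0.0464 in RNA-seq, 0.0282 in footprints), in footprints without the filter (0.0455) and without WT library 3 (0.0454). The footprint call of Zc3h12a was lost without KO library 2 (edgeR FDR 0.0555). Depth limits Dgcr8 and Ago4 most.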

Other observations

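The 4 other rows of the family share the seed of the deleted pair and are cut and loaded by the same proteins. Of these, only Mir181d was called in footprints, beside 17.6% of all genes (8.34% lower in KO). It went from 2.19 ± 0.285 CPM (102 reads over 3 libraries) in WT to 0.855 ± 0.342 CPM (23 reads) in KO, a log2 difference of -1.53 (SE 0.24, edgeR FDR 0.00911; 0.122 with the block). Mir181a-2 gave 4.27 ± 0.206 and 4.40 ± 0.241 CPM (log2 0.04, edgeR FDR 0.920). Mir181c gave 3.58 ± 0.0996 and 3.09 ± 0.113 CPM (log2 -0.22, edgeR FDR 0.426) and Mir181b-2 1.11 ± 0.388 and 1.06 ± 0.787 CPM (log2 -0.54, edgeR FDR 0.462). Footprints of Mir181c and Mir181d were lower in KO without overlap, where 38.1% of all genes did not overlap in either direction. The libraries were not made for small RNAs, so these reads give no level of a mature microRNA.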
